A study of Mus musculus with 22 samples.

Results

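The resting transcriptome of splenic immature B cells was described from 8 of the 22 RNA-seq libraries of the series, namely every library labelled as coming from untreated Tcrd-GDL mice. They were chosen by their labels alone and fell into 2 experiments deposited as separate tables, with 3 libraries in experiment 1 (libraries 1 to 3) and 5 in experiment 2 (libraries 4 to 8). The cells were taken from the spleen by the surface phenotype B220+CD93+, and total RNA was sequenced. Tcrd-GDL mice carry in their γδ T cells a green fluorescent protein, the diphtheria toxin receptor and luciferase, so all 8 libraries came from carriers of that allele that had received no toxin, and no library of mice without it was used. The other libraries of the series were not used. The labels do not state whether the libraries of an experiment came from separate mice, so the spread given below is that between libraries and may be partly technical.

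Immature B cells leave the bone marrow once they carry a working B cell receptor (BCR), a membrane IgM heavy chain paired with a kappa or lambda light chain and held with the signalling chains CD79A and CD79B. In the spleen they pass through transitional stages in which CD93 and CD24 are high and IgD, CD23 and the complement receptor CD21 are gained, and they become follicular or marginal zone B cells as CD93 is lost. Survival through these stages depends on BAFF receptor signals and on the strength of BCR signals, which CD22 and similar receptors restrain.

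Because each table was scaled separately, the 2 experiments were set side by side by rank. Within each library, 14666 protein-coding genes found in both tables, immunoglobulin constant genes included, were ranked by reads per kb of exon, with rank 1 the highest and a percentile of 100 the top. Values called normalized read counts are the deposited values, which are not divided by gene length and are not compared between experiments.

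The 3 B lineage markers ranked high, and the sort marker Cd93 ranked lower than the other 2. Cd79a (chromosome 7, bases 24897381 to 24902197, plus strand, GRCm38), the BCR signalling chain, ranked 36, 40 and 34 in libraries 1 to 3 and 39, 42, 51, 45 and 34 in libraries 4 to 8. Its normalized read counts were 9352, 8856 and 9411 in experiment 1 and 25082, 26435, 21351, 23046 and 24207 in experiment 2. Cd24a (chromosome 10, bases 43578284 to 43584265, plus strand), the heat-stable antigen, ranked 85, 108 and 86 and then 76, 76, 95, 98 and 80. The gene of the C1q receptor-like protein CD93, Cd93 (chromosome 2, bases 148436640 to 148443563, minus strand), had normalized read counts of 828, 649 and 717 in experiment 1 and of 1299, 1409, 905, 1216 and 1114 in experiment 2. Its percentiles were 82.7, 78.0 and 80.1 in experiment 1 and 74.4, 76.6, 66.5, 73.4 and 71.1 in experiment 2, so the ranges of the 2 experiments did not overlap. Ranges did not overlap, in either direction, for 4250 of the 14666 genes ranked (29%). This share applies to every gene described below as higher in all libraries of 1 experiment, so such a difference is not particular to the gene. In each library, then, Cd79a and Cd24a stood at rank 108 or above it, while Cd93 stood at rank 2542 or below it.

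Depth was 20343954, 9966821 and 13873759 reads in libraries 1 to 3 and between 24508546 and 36840455 in libraries 4 to 8. At least 10 reads in every library were found for 9933 of the 14995 protein-coding genes of experiment 1 (66.2%) and 10311 of the 16900 of experiment 2 (61%). Spearman's rho of gene ranks was 0.983 to 0.984 between libraries of experiment 1, 0.981 to 0.988 within experiment 2 and 0.974 to 0.979 between the experiments, over genes that share depth and length in each library. Library 8 had the lowest values of experiment 2, at 0.981 to 0.984, and libraries 5 and 8 held the highest value of most genes that varied, as described below. Xist, the RNA of the inactive X chromosome, was abundant in all 8 libraries, and the Y-linked genes Ddx3y, Eif2s3y, Kdm5d and Uty had 0 reads in experiment 1. For experiment 2 there are no values of these Y-linked genes to give.

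About equal parts of the counted reads fell on protein-coding genes and on all other genes. Protein-coding genes took 52.7% ± 0.597 of all reads in experiment 1 (SD, n = 3) and 47.6% ± 3.72 in experiment 2 (SD, n = 5), with 49.2, 46.4, 43.9, 45.2 and 53.3 in libraries 4 to 8. The order of the next classes differed between the experiments. In experiment 1 the short gene Gm23935 (chromosome 16, bases 11144125 to 11144181, annotated as a miRNA) came first with 19.6% ± 0.731 and the mitochondrial ribosomal RNAs followed with 16.5% ± 0.934. In experiment 2 the mitochondrial ribosomal RNAs came first with 31.8% ± 3.23 and Gm23935 followed with 12.7% ± 1.46. Gm42418 and Gm26917, annotated as lincRNAs side by side on chromosome 17, took 3.36% ± 0.618 and 3.31% ± 0.186 in experiment 1, and 1.81% ± 0.404 and 0.684% ± 0.116 in experiment 2. Malat1, a nuclear long non-coding RNA, took 1.04% ± 0.0798 and 1.36% ± 0.226 in the 2 experiments, Rpph1, the RNA of ribonuclease P, 0.995% ± 0.0388 and 1.22% ± 0.210, and Rn7sk, which restrains transcription elongation, 0.808% ± 0.0202 and 1.09% ± 0.226. The 10 highest genes of any class together held 46.7% ± 0.534 and 51.7% ± 3.63 of the reads.

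**Figure D1:**
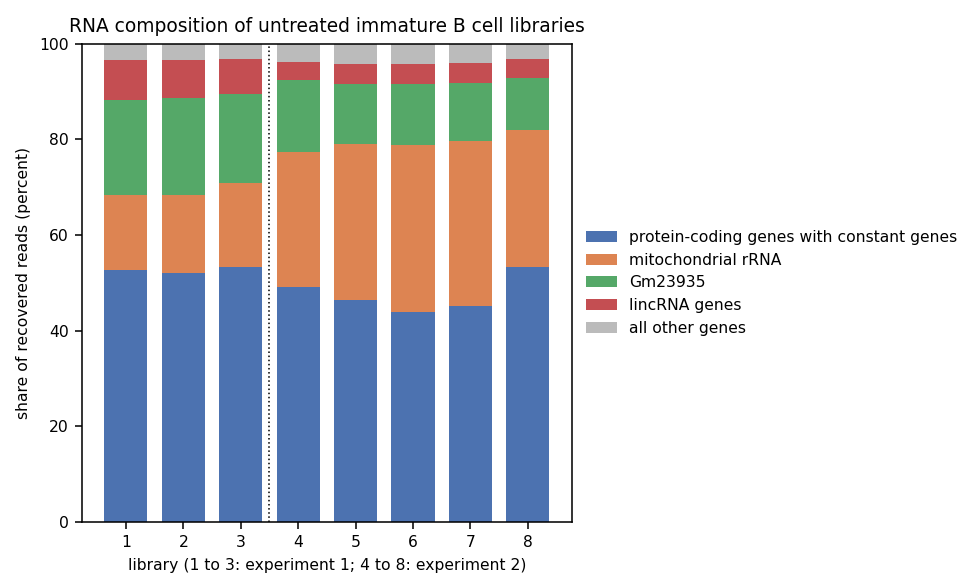
Stacked bars give the share of recovered reads (percent, vertical axis) of 5 RNA classes in each of the 8 untreated libraries (horizontal axis), with a dotted line between the experiments. Protein-coding genes fill 43.9% to 53.3% of each bar, and mitochondrial rRNA is the second class in libraries 4 to 8 while Gm23935 is the second in libraries 1 to 3.

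Of the coding gene families summed, the cytosolic ribosomal protein genes held the most reads. Cytosolic ribosomal protein genes held 5.38% ± 0.156 of all reads in experiment 1 and 5.80% ± 0.259 in experiment 2, and translation factors 1.33% ± 0.0187 and 0.973% ± 0.0758. Actin cytoskeleton genes held 1.07% ± 0.0366 and 1.03% ± 0.0958, MHC class II genes 1.01% ± 0.0303 and 0.802% ± 0.0768, and immunoglobulin constant genes 0.545% ± 0.0105 and 0.524% ± 0.0802. The messenger RNAs of the mitochondrial genome held 0.823% ± 0.119 and 1.20% ± 0.245. These are shares of reads and are not divided by gene length.

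The 20 genes with the highest median rank were, in order, mt-Co1, Igkc, Rplp1, Cd74, Actb, mt-Cytb, Eef1a1, Ighm, mt-Nd1, Tmsb4x, Rps23, Rpl36, Fau, Rpl13a, Rplp0, Tpt1, Rps3a1, Rpl8, Rpl26 and Rpsa. They were thus 3 mitochondrial messenger RNAs, 2 immunoglobulin chains, the class II invariant chain, actin and its monomer-binding partner thymosin beta 4, elongation factor 1 alpha, the growth-related protein Tpt1 and ribosomal proteins. Of the 20 highest genes of one experiment, 18 were among the 20 highest of the other, and of the 100 highest, 87 were shared. Among the 100 highest genes over all 8 libraries, which make up 0.682% of the genes ranked, 55 were cytosolic ribosomal protein genes (of 81 ranked), 7 mitochondrial (of 13), 5 BCR complex (of 6), 5 actin cytoskeleton (of 13) and 4 MHC class II genes (of 14). Of the 15 that were in no list, some are named here after their values were seen. They included the surface protein genes Ms4a1 (CD20), Fcmr (the IgM Fc receptor), Ly6d, Cd52 and Cd53. Others were the CD45-associated Ptprcap, the lysosomal protease gene Ctss and the linker histone genes Hist1h1c and Hist1h1e.

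Transcripts of the antigen receptor stood at the top of every library. Igkc (chromosome 6, bases 70726435 to 70726966, plus strand), the kappa light chain constant gene, ranked 2, 1 and 1 in libraries 1 to 3 and 3, 1, 3, 2 and 2 in libraries 4 to 8. Ighm (chromosome 12, bases 113418558 to 113422730, minus strand), which encodes the IgM heavy chain, ranked 7, 7 and 8 and then 8, 7, 13, 12 and 8. Iglc2 (chromosome 16, bases 19198396 to 19200351, minus strand), a lambda constant gene, ranked 28 to 38, then 20 to 27; in this and all later pairs the first range is over experiment 1 and the second over experiment 2. The signalling chain genes Cd79b (34 to 42, then 29 to 38) and Cd79a (34 to 40, then 34 to 51) ranked close to it. Ighd (chromosome 12, bases 113406604 to 113416324, minus strand), the IgD heavy chain that follows Ighm in the same transcription unit, was the lowest of the 6, at ranks 66, 81 and 58 in libraries 1 to 3 and 124, 137, 142, 117 and 96 in libraries 4 to 8. All 6 members were in the highest 10% of genes in both experiments, against 10% of all genes ranked in each table, the share that this threshold fixes.

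Ighm exceeded Ighd in every library. Per kb, the ratio of Ighm to Ighd was 4.64, 5.61 and 4.02 in libraries 1 to 3 (4.76 ± 0.800, SD, n = 3) and 9.04, 9.35, 7.59, 7.04 and 7.34 in libraries 4 to 8 (8.07 ± 1.05, SD, n = 5). In rank, Ighd stood higher in every library of experiment 1 than in any of experiment 2, while the ranges of Ighm overlapped, and the experiment and the deposited table cannot be told apart for this difference. The secreted and membrane forms of IgM are summed in the count of Ighm. The ratio of Igkc to Iglc2 per kb was 5.28 ± 1.04 in experiment 1 and 4.11 ± 0.717 in experiment 2, with ranges of 4.08 to 5.96 and 3.39 to 5.08 that overlap. The near-identical lambda constant genes share reads, so the value for Iglc2 alone is uncertain.

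**Figure D2:**
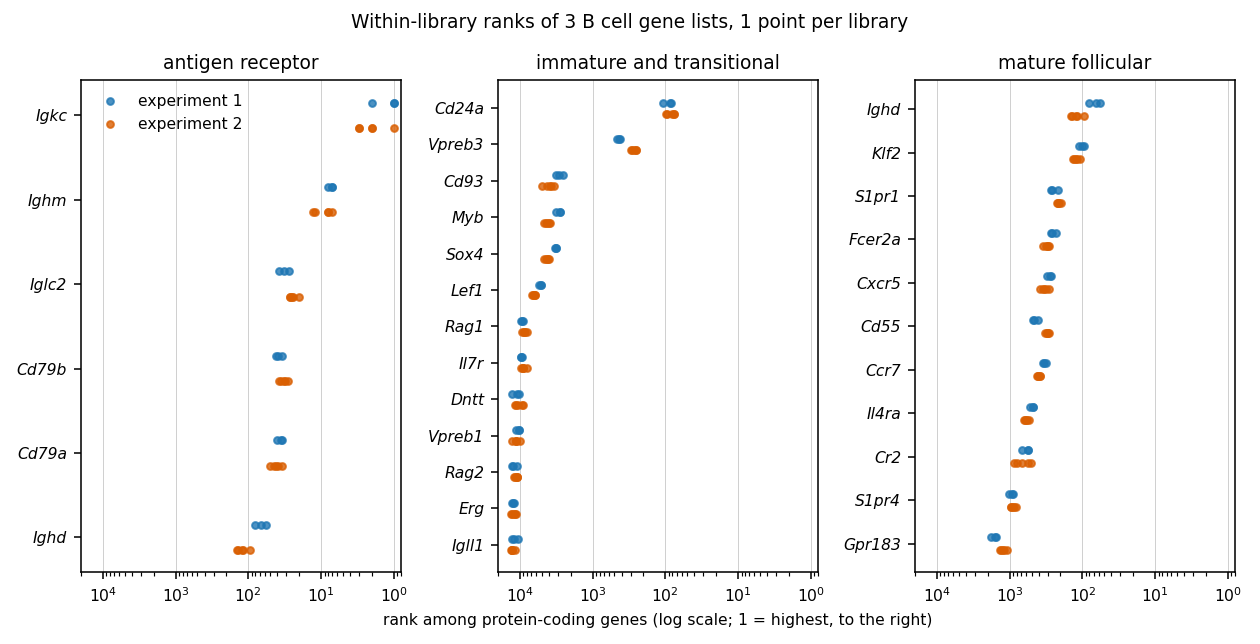
Within-library ranks (horizontal log axis, 1 the highest, to the right) of members of 3 B cell gene lists (all but 1 of the follicular list), with 1 point per library and the experiments in 2 colours. The antigen receptor genes lie between ranks 1 and 142 and the mature follicular genes between 58 and 1782, while the immature list spreads from Cd24a at 76 to 108 down to Igll1 and Erg near the bottom.

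Heavy chain and kappa variable reads were spread over many segments, while most lambda variable reads came from Iglv1, with 69.1% to 71.2% in libraries 1 to 3 and 68.3% to 74.2% in libraries 4 to 8. The Ighv1 family held 60.1% ± 1.11 of the heavy chain variable reads in experiment 1 and 55.95% ± 0.631 in experiment 2, followed by Ighv5 with 8.01% and 8.17% and Ighv9 with 7.21% and 7.05%. The most used heavy chain segment was Ighv1-81 in experiment 1, with 6.09% of these reads, and Ighv1-26 in experiment 2, with 4.75%. Ighv1-81 was not among the 5 highest of experiment 2, where the fifth took 3.05%, and Ighv1-26 took 4.28% in experiment 1. Ighv9-3 took 5.21% and 4.74% in the 2 experiments. Among kappa families Igkv6 (15.8% and 13.8%), Igkv1 (15.0% and 17.9%), Igkv4 (13.6% and 10.7%) and Igkv8 (11.3% and 13.5%) were the highest. Igkv1-117 took 4.97% of the kappa variable reads in either experiment, Igkv1-135 4.78% and 7.53%, and Igkv10-96 5.04% and 3.98%. The effective number of heavy chain segments (the number of equally used segments that would give the same evenness) was 43.8 ± 1.77 and 48.3 ± 0.611, and that of kappa segments 41.2 ± 2.15 and 38.5 ± 1.64. The heavy chain and kappa segments named thus took at most 7.53% of their class on average. How reads that fit several segments were counted is not given in the sources used here, so the split within a family is uncertain.

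The pathway that carries the BCR signal was abundant. Of its 23 genes, 18 in experiment 1 and 18 in experiment 2 were in the highest 10%, and the list's median percentile was 95.6 and 95.3, against 50 for all genes. The Src-family kinase genes Lyn (209 to 224, then 196 to 242) and Blk (247 to 281, then 298 to 344) were among the higher members, whereas the third kinase of that family in the list, Fyn, ranked 3391 to 4337, then 3683 to 5016. Downstream stood the kinase genes Syk (305 to 336, then 379 to 490) and Btk (635 to 751, then 646 to 893) and the adaptor gene Blnk (930 to 992, then 870 to 1087). The phospholipase gene Plcg2, whose product Btk activates (288 to 328, then 317 to 424), and the scaffold gene Bank1 (357 to 373, then 309 to 368) ranked near Syk. The proximal kinases Lyn and Blk therefore ranked above Syk and Btk in every library, and the paracaspase Malt1, which links the BCR to NF-κB, ranked lower, at 3065 to 3245, then 2758 to 2899. The corrected coefficient of variation (CV, the spread between libraries with the counting part removed) had a median of 4.99% and 5.68% over the list.

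Genes that restrain BCR signalling ranged from abundant to scarce. Of the 12 inhibitory receptors and phosphatases, 6 in experiment 1 and 6 in experiment 2 were in the highest 10%. Ptpn6, the phosphatase SHP-1 that these receptors recruit, had the highest rank (129 to 142, then 110 to 133), followed by the receptors Btla (208 to 241, then 206 to 254), Cd22 (271 to 300, then 300 to 398) and Cd72 (349 to 351, then 425 to 531). Siglecg, a sialic acid receptor like Cd22, had normalized read counts of 1266, 1472 and 1275 in experiment 1 and 4640.1, 5089.9, 5526, 4997 and 4277 in experiment 2. It ranked 873 to 1047, then 518 to 624, higher in every library of experiment 2 than in any of experiment 1. Fcgr2b, the inhibitory Fc receptor, stood lower (2287 to 2585, then 1838 to 2147), and Cd5, which marks B-1 and anergic B cells, was the lowest named (8765 to 9194, then 9161 to 9826). Cd5 is also a T cell gene, and T cell markers were present in these libraries at the levels given below.

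Most of the B lineage transcription factors were abundant, while Tcf4 and 3 factors of the earlier stages ranked lower. Of 25 factors, 17 and 16 were in the highest 10%, with a median percentile of 94.2 and 91.1. The highest were Klf2, which holds lymphocytes in quiescence (96 to 111, then 108 to 134), the ETS factor Spib (154 to 169, then 147 to 189), the octamer co-activator Pou2af1 (191 to 193, then 191 to 247) and Ets1 (205 to 209, then 224 to 307). The lineage factor genes Pax5 (1188 to 1317, then 1327 to 1539) and Ebf1 (1023 to 1086, then 1155 to 1531) came further down, and the E protein genes Tcf3 (415 to 482, then 466 to 670) and Tcf4 (5776 to 6132, then 6145 to 6992) lay far apart. Below Pax5 and Ebf1 stood Myb (2825 to 3132, then 3846 to 4623), Sox4 (3139 to 3289, then 3981 to 4665) and Lef1 (5113 to 5494, then 6153 to 6797), factors of the progenitor and pre-B stages. For these 3 factors and for Tcf4 the rank was higher in every library of experiment 1 than in any of experiment 2. Such non-overlap was common, since the percentiles of 4250 of the 14666 genes (29%) did not overlap between the experiments.

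The list of immature and transitional genes held some of the highest and some of the lowest genes of the B lineage. Of its 13 members, Cd24a and Vpreb3 were in the highest 10%, and the median percentile was 36.1 and 42.6. At least 10 reads in every library of each experiment were found for 8 of the 13. The share over all protein-coding genes was 66.2% in experiment 1 and 61% in experiment 2, so this count does not set the list apart. Vpreb3 (chromosome 10, bases 75943057 to 75949657, plus strand), a chaperone-like partner of the nascent heavy chain, had normalized read counts of 481, 461 and 421 in experiment 1 and 1969, 1958, 1754, 1558 and 1694 in experiment 2. It ranked 414 to 465, then 250 to 295, again with no overlap between the experiments. Rag1, a recombinase gene that assembles the receptor genes in the bone marrow, had normalized read counts of 38.8, 32.7 and 53.4 in libraries 1 to 3 and 209.8, 299, 94.8, 171 and 169 in libraries 4 to 8. Its partner Rag2 had 0.596, 3.63 and 0 and then 9.95, 5.21, 8.73, 2.67 and 10.3. The gene Dntt, which encodes terminal transferase, and the surrogate light chain genes Vpreb1 and Igll1 had at most 44 reads in any library. The list thus ran from Cd24a, within the 108 highest genes, to genes of the early bone marrow stages with hardly any reads.

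The promoter of Vpreb3 is shown because this gene was the second of its list and its window holds the octamer, the site of the Oct factors that Pou2af1 assists. The 250 bases before its RefSeq start (chr10:75948050-75948299, plus strand, GRCm38.p6, within the longer gene span of the GENCODE annotation) are printed 5′ to 3′ on the gene's strand with ATTTGCAT in capitals, 45 to 38 bases before the start.
Vpreb3: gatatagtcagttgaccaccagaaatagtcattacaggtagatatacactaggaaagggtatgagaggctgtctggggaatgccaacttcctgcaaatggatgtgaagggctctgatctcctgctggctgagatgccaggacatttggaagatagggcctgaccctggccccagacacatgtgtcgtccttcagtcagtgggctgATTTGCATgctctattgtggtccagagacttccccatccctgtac
The octamer ATTTGCAT on either strand was found in 1.61% of all 27025 promoters of that length in the table and in 1.32% of those of ranked genes. It was in 1.49% of those of genes with fewer than 10 reads and in none of the 58 of the 100 highest genes. Of the 18 BCR signalling genes with a promoter, 2 held it (11.1%), Blnk and Prkcb. None of the 21 B lineage transcription factors, 12 inhibitory receptors and phosphatases and 10 MHC class II genes with a promoter held it. The EBF1 motif CCCNNGGGA was found in 5.53% of all promoters and in 1 of the 18 of BCR signalling genes.

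Genes of the mature follicular B cell were already high. Of 12 members, 11 in experiment 1 and 12 in experiment 2 were in the highest 10%, with a median percentile of 97.9 and 97.5. Fcer2a, which encodes CD23, had normalized read counts of 2776, 2726 and 3271 and then 5549.9, 6154, 5166, 5108 and 5434 (ranks 230 to 270, then 289 to 343). Cr2, which encodes the complement receptors CD21 and CD35, had 3485, 3132 and 3413 and then 6538, 5882, 7369, 8267 and 8662 (ranks 566 to 665, then 502 to 882). Klf2, the egress receptor S1pr1 that it controls (213 to 270, then 195 to 224), and the follicle and T zone chemokine receptors Cxcr5 (266 to 302, then 284 to 381) and Ccr7 (321 to 349, then 377 to 422) were in the highest 10% in every library. Gpr183, a receptor that guides B cells to the follicle border, was the lowest of the list in every library (1532 to 1782, then 1081 to 1339). Cd93, the marker of immaturity, ranked below each of the 12 follicular genes in all 8 libraries.

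Markers of other B cell subsets were lower. The 9 marginal zone genes had a median percentile of 71.0 and 74.8, with the endoplasmic reticulum protein gene Mzb1 (254 to 296, then 206 to 255) and the receptor gene Notch2, which directs marginal zone fate (727 to 843, then 834 to 1410), at the top. The fatty acid receptor gene Cd36 had normalized read counts of 447, 391 and 507 and then 2094, 2644, 2234, 2058 and 1979 (ranks 2165 to 2874, then 863 to 1163), with no overlap in rank between the experiments. None of the 9 B-1 and atypical genes and none of the 8 germinal centre genes were in the highest 10% in either experiment, with median percentiles of 37.3 and 35.3 for the former and 33.5 and 37.3 for the latter. The germinal centre repressor gene Bcl6 ranked 3081 to 3241, then 3021 to 4045.

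Antigen presentation through MHC class II was one of the most abundant B cell programs. Of 14 genes, 9 in each experiment were in the highest 10%, with a median percentile of 97.0 and 96.1. The invariant chain gene Cd74, which escorts class II molecules, ranked 1, 2 and 2 in libraries 1 to 3 and 4, 4, 6, 6 and 4 in libraries 4 to 8. The chains of the I-A and I-E molecules followed, with H2-Ab1 (24 to 29, then 31 to 39) above H2-Eb1 (36 to 41, then 52 to 60) and H2-Aa (56 to 61, then 64 to 73). H2-Eb1 lies on chromosome 17, bases 34305867 to 34316674, plus strand, and H2-Aa on the same chromosome, bases 34282744 to 34287823, minus strand. H2-Aa had normalized read counts of 15757, 16477 and 16825 in experiment 1 and 36561, 39537, 40946, 39072 and 34951 in experiment 2. Ciita, the co-activator that all class II promoters need, ranked much lower (1211 to 1300, then 1615 to 1896). The list varied little between libraries, with a median corrected CV of 3.32% in experiment 1 and 6.30% in experiment 2.

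The promoters of 2 class II chains are shown because their genes held similar ranks and because both hold the Y box, the site of the factor NF-Y, at a like distance from the start. Each gives the 250 bases before the RefSeq start in GRCm38.p6, 5′ to 3′ on the gene's strand, with TGATTGG in capitals, for H2-Aa (chr17:34287824-34288073, minus strand) at 50 to 44 bases and for H2-Eb1 (chr17:34305617-34305866, plus strand) at 61 to 55 bases before the start.
H2-Aa: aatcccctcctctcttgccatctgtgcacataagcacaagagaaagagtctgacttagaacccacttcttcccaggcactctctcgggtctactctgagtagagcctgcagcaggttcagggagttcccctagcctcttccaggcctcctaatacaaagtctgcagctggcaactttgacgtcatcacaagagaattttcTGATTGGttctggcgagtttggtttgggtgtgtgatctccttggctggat
H2-Eb1: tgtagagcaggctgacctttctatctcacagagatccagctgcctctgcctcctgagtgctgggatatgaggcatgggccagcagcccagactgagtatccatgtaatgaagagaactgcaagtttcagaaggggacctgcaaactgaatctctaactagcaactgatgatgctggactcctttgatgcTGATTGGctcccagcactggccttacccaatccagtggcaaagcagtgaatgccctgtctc
On either strand TGATTGG was found in 8 of the 10 class II list genes that had a promoter in the table (80%), namely H2-Aa, H2-DMb1, H2-DMb2, H2-Eb1, H2-Eb2, H2-Oa, H2-Ob and Rfx5. It was found in 7.65% of all 27025 promoters, in 9.83% of the 11400 that belong to ranked genes and in 10.3% of the 58 that belong to the 100 highest genes. A match is a description of the letters in this window.

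MHC class I genes ranked in the order of light chain, heavy chains and transporters. B2m, the common light chain (19 to 22, then 13 to 25), stood above the heavy chain genes H2-D1 (55 to 60, then 59 to 77) and H2-K1 (79 to 84, then 103 to 125) and above the peptide transporter genes Tap1 (693 to 790, then 791 to 1006) and Tap2 (1214 to 1348, then 1736 to 2144). Class I heavy chains are close copies of each other and share reads, so the split between them is uncertain. Of the 11 class I genes, 8 and 7 were in the highest 10%.

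Among survival receptors the BAFF receptor led. Tnfrsf13c, which encodes it, ranked 140, 154 and 136 in libraries 1 to 3 and 164, 163, 178, 171 and 139 in libraries 4 to 8, with normalized read counts of 3623, 3355 and 3723 and 8085, 8244, 7598, 7219.9 and 8377. TACI, encoded by Tnfrsf13b and also a BAFF receptor, came next (280 to 339, then 287 to 343), and Cd40, the receptor for T cell help, ranked higher in every library of experiment 2 (1452 to 1776, then 841 to 943). The third receptor for BAFF and APRIL, Tnfrsf17 (BCMA), which marks plasma cells, ranked 10454 to 12968, then 9376 to 12895. Within the BCL2 family, 1 of 15 genes was in the highest 10%, the anti-apoptotic Mcl1 (94 to 104, then 84 to 93). Its relatives Bcl2 (2511 to 3058, then 3819 to 4770) and Bcl2l1 (7448 to 8187, then 7903 to 8394) and their pro-apoptotic antagonist Bcl2l11, which encodes BIM (3385 to 3787, then 4311 to 6112), ranked far below it. In every library, therefore, the order was Mcl1 above Bcl2 above Bcl2l1.

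Receptors for position in the spleen were abundant and receptors for cytokines and microbial products were mixed. Of 16 homing receptors and integrins, 10 in each experiment were in the highest 10%. Cxcr4, the receptor that holds B cells in the bone marrow, was the highest by its median over all libraries (165 to 174, then 197 to 406). S1pr1 (213 to 270, then 195 to 224) stood below Cxcr4 in every library of experiment 1 and above it in every library of experiment 2. Of 19 cytokine receptor genes, 5 in each experiment were in the highest 10%, among them Il21r (448 to 494, then 443 to 516) and Il4ra (478 to 521, then 545 to 641). Of 19 toll-like receptors and their partners, 5 in each experiment were in the highest 10%. Unc93b1, which carries the endosomal receptors to their compartment (150 to 173, then 137 to 160), stood above the DNA sensor gene Tlr9 (520 to 622, then 442 to 787) and the RNA sensor gene Tlr7 (1917 to 2421, then 1916 to 2451). Tlr4, the lipopolysaccharide receptor, ranked 6459 to 6542, then 4757 to 5468, and the flagellin receptor gene Tlr5 had at most 1 read in a library. Tlr9 and Tlr7 thus ranked above Tlr4 in every library. The order did not follow the site of the receptor, since Tlr1, a receptor of the cell surface, ranked 1180 to 1399, then 981 to 1191 and the endosomal Tlr3 10058 to 10650, then 9327 to 10361.

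Genes of the translation machinery ranked high. Of the 81 cytosolic ribosomal protein genes, 76 in experiment 1 and 77 in experiment 2 were in the highest 10%, with median percentiles of 99.5 and 99.5. Rplp1, which encodes an acidic stalk protein (3 to 6, then 2 to 5), was followed by Rps23 (11 to 13, then 8 to 11) of the small subunit, with Rpsa (16 to 19, then 20 to 22) a few ranks below. The paralogs Rpl3l and Rpl39l, and Rpl24, ranked at 7843 or below in every library, and since ribosomal protein genes have many processed copies in the genome, the values of single members are uncertain. All 11 translation factors and all 13 actin cytoskeleton genes were in the highest 10% in both experiments. The spread of ribosomal protein genes had a median corrected CV of 5.21% in experiment 1 and 15.3% in experiment 2, where library 8 lay below and library 6 above the mean of the 5, by -0.35 and 0.23 in the list's median log2 deviation.

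Promoters of 2 of the highest ribosomal protein genes are shown because members of the list held near-equal ranks and 18 of the 60 with a promoter in the table (30%) hold the ETS core CCGGAAG, read on either strand. The share was 7.05% of all 27025 promoters, 12.7% of those of ranked genes, 27.6% of the 58 of the 100 highest genes, many of which are ribosomal protein genes, and 3.91% of the 2149 of genes with fewer than 10 reads in every library. The 250 bases before the RefSeq starts of Rpsa (chr9:120127516-120127765, plus strand) and Rplp2 (chr7:141447401-141447650, plus strand) in GRCm38.p6 are printed 5′ to 3′ on the gene's strand, with the core in capitals as it reads there, CTTCCGG, 188 to 182 and 108 to 102 bases before the start.
Rpsa: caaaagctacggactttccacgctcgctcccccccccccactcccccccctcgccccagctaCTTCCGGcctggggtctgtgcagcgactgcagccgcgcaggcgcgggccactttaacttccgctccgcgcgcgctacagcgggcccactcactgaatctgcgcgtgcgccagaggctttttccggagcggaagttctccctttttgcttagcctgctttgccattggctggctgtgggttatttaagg
Rplp2: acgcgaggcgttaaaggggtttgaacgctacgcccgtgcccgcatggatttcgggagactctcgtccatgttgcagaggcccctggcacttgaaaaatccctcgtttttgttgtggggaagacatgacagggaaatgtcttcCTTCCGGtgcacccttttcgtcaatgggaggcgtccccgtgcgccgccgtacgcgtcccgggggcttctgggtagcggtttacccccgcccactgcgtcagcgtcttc
No motif named here overlaps another in the promoters printed.

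Energy metabolism was led by the mitochondrial genome. Its messenger RNAs mt-Co1, for a subunit of cytochrome oxidase (3 to 4, then 1 to 2), mt-Cytb (7 to 13, then 3 to 8) and mt-Nd1 (9 to 15, then 5 to 10) were all among the 20 highest. By contrast mt-Co2 (6165 to 6910, then 3241 to 5957), mt-Co3 (5203 to 5383, then 2427 to 5508) and mt-Atp6 (4901 to 5645, then 4584 to 6947), which have nuclear copies, were listed far lower, and their values are uncertain. Of the 81 nuclear oxidative phosphorylation genes, 50 in experiment 1 and 56 in experiment 2 were in the highest 10%, and of the 16 glycolysis genes 7 and 6 were. The glycolytic enzymes Gapdh (528 to 584, then 655 to 775) and Aldoa (335 to 358, then 370 to 452) ranked high, whereas the hexokinase gene Hk2 ranked 7255 to 8059, then 8138 to 8696.

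Mitotic genes were low. None of the 22 mitosis genes was in the highest 10%, and their median percentile was 43.8 and 37.2. Mki67, which marks cycling cells, had normalized read counts of 131, 150.2 and 125 in experiment 1 and 169, 178, 119.7, 184 and 233 in experiment 2. The topoisomerase gene Top2a ranked 5515 to 6125, then 7342 to 8583, higher in each library of experiment 1 than in any of experiment 2. Pcna, the replication clamp that also serves DNA repair, was the highest of 22 replication genes (694 to 781, then 622 to 808), while the list as a whole had a median percentile of 66.7 and 54.7.

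Genes induced by stimulation and handling were moderate to high. Of 21 immediate early genes, 11 in experiment 1 and 9 in experiment 2 were in the highest 10%. Jund, a constitutive AP-1 subunit, was the highest (88 to 107, then 104 to 122), and the BCR-induced Egr1 stood lower (1688 to 2161, then 2531 to 3538). Nr4a1, which encodes NUR77 and reports antigen receptor signals, had normalized read counts of 487, 345 and 249 in libraries 1 to 3 and 315, 196, 313, 371 and 378 in libraries 4 to 8. Its percentiles were 71.4 to 84.8 in experiment 1 and 49.4 to 61.4 in experiment 2, and those of Fosb, an AP-1 subunit, 78.0 to 78.5 and 47.1 to 59.8. Both were higher in rank in all 3 libraries of experiment 1 than in any of the 5 of experiment 2, and the experiment and the table cannot be told apart.

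Chaperone and stress genes were high with some exceptions. Of 11 heat shock genes, 6 in each experiment were in the highest 10%, with the constitutive chaperone genes Hspa8 (69 to 83, then 77 to 119) and Hsp90ab1 (51 to 61, then 101 to 141) the highest. Of 19 genes of the unfolded protein response, 10 and 11 were, with the lectin chaperone gene Calr (89 to 105, then 96 to 119), the disulfide isomerase gene Pdia4 (143 to 159, then 167 to 202) and Hspa5, which encodes BiP (191 to 225, then 203 to 216), the highest. Of 25 interferon response genes, 2 in each experiment were in the highest 10%, namely Ifi27l2a (97 to 138, then 66 to 110) and Irf9, a subunit of the factor that interferon activates (916 to 1207, then 909 to 1201). The ubiquitin-like Isg15 ranked 4886 to 6914, then 4688 to 5780. Glucocorticoid-induced genes had a median percentile of 61.4 and 62.4 over 7 genes.

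**Figure D3:**
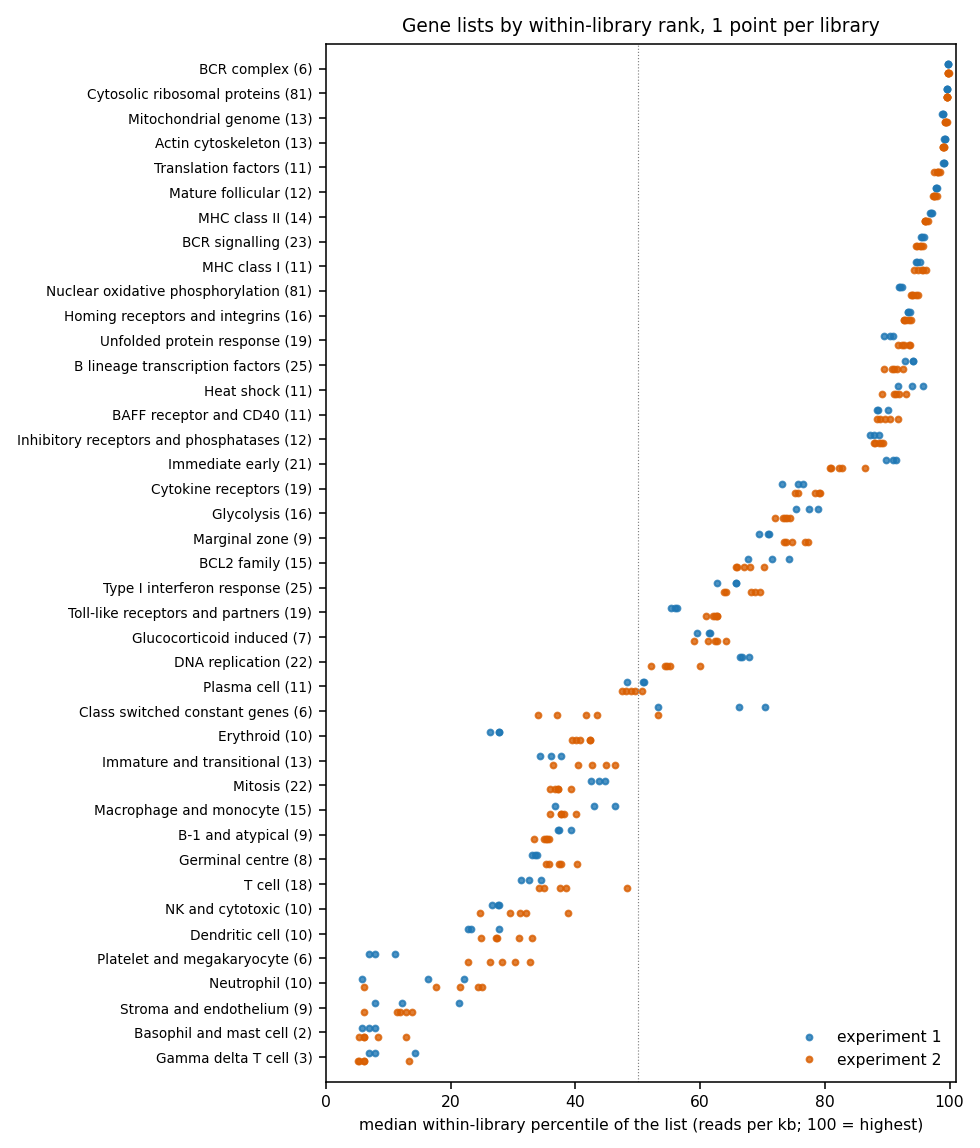
Median within-library percentile (horizontal axis, 100 the highest) of each of the 41 ranked gene lists, with the number of genes in brackets, 1 point per library and the experiments in 2 colours. In each experiment 18 lists have a median above the percentile 75, with the BCR complex highest, and the lists of γδ T cell, basophil and mast cell, and stromal and endothelial genes lie among the lowest in both.

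Most genes varied little between untreated libraries. Among 8845 genes with a mean of at least 50 reads in experiment 1, the median corrected CV was 5.10% and in 68 (0.769%) the highest library was at least 2 times the lowest. Among 9454 genes of experiment 2, the median was 8.84% and 379 (4.01%) reached that ratio, a count that also depends on the number of libraries. Of the 379 genes, 175 were highest in library 8 and 106 in library 5, against 23, 34 and 41 in libraries 4, 6 and 7, and without library 8 the count was 178. In experiment 1 the count was 24, 36 and 30 without libraries 1, 2 and 3, and the median CV 3.10%, 2.97% and 2.99%, since each then compared 2 libraries. Rela, the NF-κB subunit, was among the steadiest of experiment 1, with normalized read counts of 772, 769 and 770.5, and Polr3k, a subunit of RNA polymerase III, among those of experiment 2, with 569.7, 571, 566, 573 and 573. Their corrected CV was 0 there, as in 748 of the 3600 genes of experiment 1 and 125 of the 5500 of experiment 2 with a mean of at least 500 reads. Neither was as steady in the other experiment, where the corrected CV was 10.1% for Rela (experiment 2) and 9.60% for Polr3k (experiment 1).

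In experiment 1 genes of heat shock, plasma cells and macrophages were among the 10 protein-coding genes with the highest corrected CV. The immunoglobulin constant genes are not in this order and are described apart. Hspa1a and Hspa1b, neighbouring near-identical genes of the inducible HSP70, had the highest CVs of these. The normalized read counts of Hspa1a were 272, 19.4 and 12.7 in libraries 1 to 3 (corrected CV 146%) and those of Hspa1b 657, 102 and 22.0 (133%). The HSP70 exchange factor gene Hsph1 had 1848, 1040.4 and 619.6. Library 1 was thus the highest for all 3, and the 11 heat shock genes deviated by 0.33 (median log2) in library 1 and -0.31 in library 3. The macrophage genes Lyz2, which encodes lysozyme, and C1qa, a chain of complement C1q, had 69.8, 229 and 254 for the first and 17.9, 58.1 and 62.7 for the second, lowest in library 1. Also among the 10 were the peptide transporter gene Slc15a2 (146, 31.5 and 40.7), Jchain, Cdk5rap1 (62.0, 102 and 197), Hist1h4m (4.77, 93.3 and 60.2) and Eps8l1 (346, 276 and 87.3). In experiment 2 Slc15a2 had 391, 177, 438, 24.0 and 382 and Cdk5rap1 787, 829, 678, 166 and 229.9, each with libraries far apart.

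In experiment 2 genes of T cells and of plasmacytoid dendritic cells were among the corresponding 10 protein-coding genes, immunoglobulin constant genes again apart. Ccl5, a chemokine of cytotoxic lymphocytes, had normalized read counts of 24.9, 5.21, 16.2, 52.1 and 157 in libraries 4 to 8 (corrected CV 119.9%). Cd3e, a chain of the T cell receptor complex, had 57.2, 29.2, 33.7, 41.4 and 167, and its partner Cd3g 79.6, 31.2, 39.9, 84.2 and 207. The T cell factor gene Tcf7 had 87.9, 71.8, 41.2, 92.2 and 277, and the adaptor gene Fyb 31.5, 69.8, 24.9, 60.1 and 194. Library 8 was the highest for all of these. By contrast Siglech, a receptor of plasmacytoid dendritic cells, had 20.7, 157, 17.5, 26.7 and 41.3, the protease gene Ctsl 85.4, 255, 74.8, 94.8 and 37.9 and Plxdc1 53.1, 154, 22.5, 50.8 and 50.8, and library 5 was the highest for these 3. Igfbp4 (42.3, 30.2, 21.2, 50.8 and 155) and the linker histone gene H1f0 (69.7, 167, 26.2, 37.4 and 43.0) completed the 10.

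Whole lists showed the same libraries apart. The median log2 deviation of the T cell list was 1.36 in library 8, that of the NK and cytotoxic list 1.10, that of the mitosis list 0.41 and that of the erythroid list -0.99. Nuclear oxidative phosphorylation deviated by -0.27 in the same library. The dendritic cell list deviated by 1.52 in library 5. In experiment 1 the macrophage list deviated by -0.90 in library 1 and 0.62 in library 3. Of the lists of B cell function, BCR signalling, mature follicular genes and MHC class II had deviations of -0.10 to 0.07 over the 8 libraries.

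**Figure D4:**
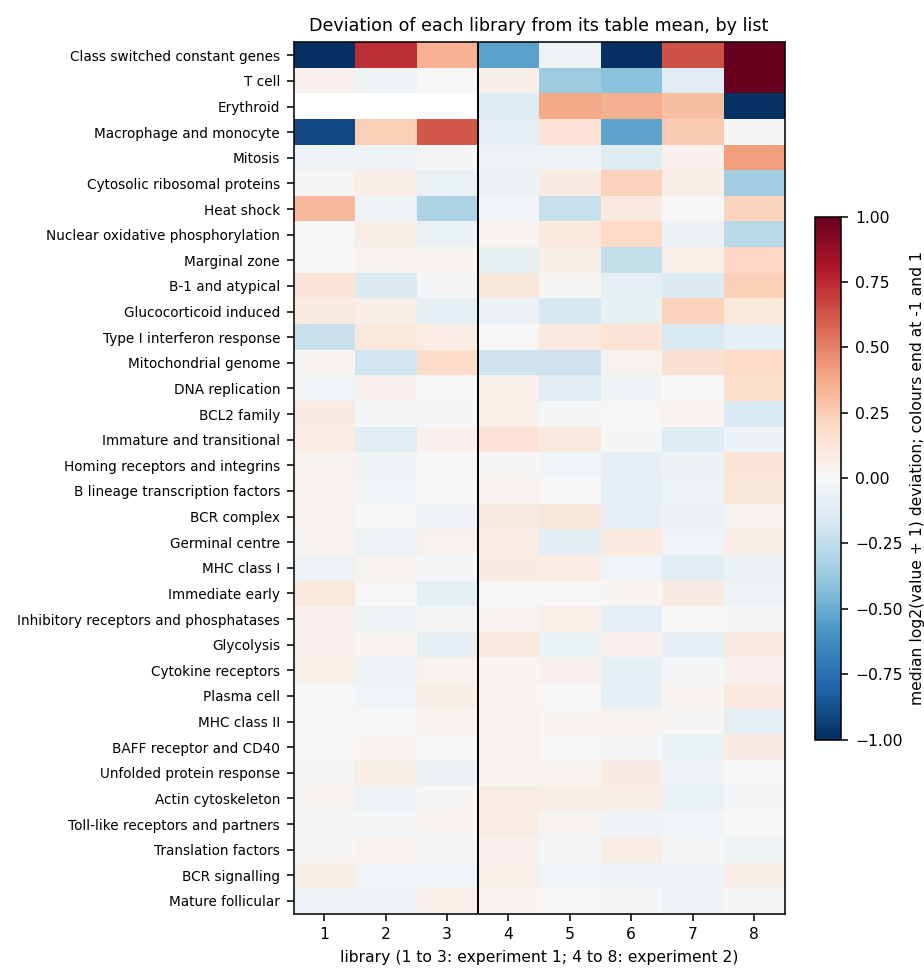
Median log2(value + 1) deviation of each list (vertical axis) in each library (horizontal axis) from the mean of its experiment, as colours that end at -1 and 1. Library 8 is high for T cell genes (1.36) and low for erythroid (-0.99) and ribosomal protein genes (-0.35), while the BCR signalling, mature follicular and MHC class II lists stay pale in all 8 libraries.

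Transcripts of class-switched immunoglobulin varied widely between libraries. Normalized read counts of Ighg2c, an IgG heavy chain gene, were 50.7, 501 and 206 in libraries 1 to 3 and 77.1, 213, 11.2, 472 and 672 in libraries 4 to 8. Ighg2b had 104, 407 and 331 and then 211, 211, 44.9, 370.0 and 1032, and Igha, the IgA heavy chain, 128, 254 and 334 and then 25.7, 76.0, 64.9, 72.1 and 206. Library 8 was the highest of experiment 2 for each of them and library 1 the lowest of experiment 1. Ighg3 had 53.7, 124 and 61.9 and then 147, 22.9, 7.48, 81.5 and 162, and Ighe, the IgE heavy chain, had 0 reads in 6 of the 8 libraries. The corrected CV of Ighg2c was 90.4% in experiment 1 and 95.7% in experiment 2, and that of Ighg2b 55.9% and 103%, and the 2 ranked 680 to 6124, then 1288 to 9812 and 2002 to 6080, then 1775 to 9167. The median corrected CV of the list was 51.3% in experiment 1 and 89.1% in experiment 2.

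The joining chain gene Jchain, which plasma cells use to assemble polymeric antibody, also varied. Its normalized read counts were 410.3, 1446 and 715 in libraries 1 to 3 and 1227, 2065, 609.9, 2813 and 2612 in libraries 4 to 8, lowest in libraries 1 and 6, where Ighg2c was lowest too. The plasma cell regulator gene Prdm1 (7975 to 8630, then 8487 to 9550) and the surface proteoglycan gene Sdc1 (2642 to 3167, then 4707 to 6024) ranked below Xbp1, a driver of secretion (1119 to 1754, then 968 to 1391), and the factor gene Irf4 (520 to 707, then 716 to 980). Over the 11 plasma cell genes the median percentile was 50.9 and 48.9. Whether a small number of antibody-secreting cells passed the gate was not tested.

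RNA of other cell types was present in unequal amounts and, as summed reads, mostly at low levels. Some single genes ranked high, among them the erythroid gene Hbb-bs (302 to 1161 in experiment 2) and the macrophage gene Lyz2 (1481 to 5178, then 831 to 4134). In every library of experiment 2 Hbb-bs stood above the sort marker Cd93 (3438 to 4908). In such bulk samples fewer cells of a type and less RNA per cell cannot be told apart. The 18 T cell genes summed to 421, 404 and 436 RPM (reads of the list per 1000000 protein-coding reads) in libraries 1 to 3 and 462, 465, 397, 408 and 491 in libraries 4 to 8, most of it from Cd2, which B cells also express. Without Cd2 the sum was 57.0, 62.0 and 71.8 in experiment 1 and 66.9, 61.1, 51.3, 71.4 and 168 in experiment 2, so library 8 held more than 2 times any other library of experiment 2. The kinase gene Lck had 382, 180 and 261 reads in libraries 1 to 3, where its corrected CV was 0%. In libraries 4 to 8 its normalized read counts were 395, 336, 352, 331 and 486, highest in library 8, with a corrected CV of 16.1%. Without Cd2 and Lck the other 16 genes summed to 21.4, 27.3 and 36.5 in experiment 1 and 40.7, 38.7, 28.3, 49.0 and 135 in experiment 2, with library 8 again the highest. NK and cytotoxic genes summed to 5.41, 12.1 and 10.4 and then 11.6, 11.6, 11.9, 20.8 and 40.9, again highest in library 8. γδ T cell markers summed to at most 0.971 RPM over the 3 that could be ranked, and Tcrg-C1, which encodes a γ chain constant region, was at 0 in both experiments.

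Myeloid and erythroid RNA differed from library to library. Macrophage and monocyte genes summed to 74.9, 148 and 189.9 RPM in libraries 1 to 3 and 89.3, 105, 74.9, 136 and 147 in libraries 4 to 8. Dendritic cell genes summed to 6.43, 8.47 and 9.73 and then 8.77, 36.3, 7.60, 13.5 and 23.4, highest in library 5 within experiment 2. Erythroid genes summed to 4.75, 12.7 and 7.70 and then 106, 165, 155, 162 and 61.1, and in rank the list had a median percentile of 27.7 in experiment 1 and 40.8 in experiment 2. Neutrophil genes reached at most 12.5 RPM, with Camp, Elane and Ly6g at 0 in experiment 1 and Elane at 0 in experiment 2. Platelet genes reached at most 6.40 RPM, with Pf4 and Gp9 at 0 in experiment 1. Basophil and mast cell genes stayed at or below 0.472 RPM over the 2 that could be ranked, with Cpa3 at 0 in both experiments, so the sum is that of Gata2 alone, with 8 reads in library 8 and at most 1 in any other. Stromal and endothelial genes without Pecam1, an adhesion gene that B cells share, summed to 1.88 to 7.79 RPM. The part of these cells in the spread of the B cell genes was not tested.

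**Figure D5:**
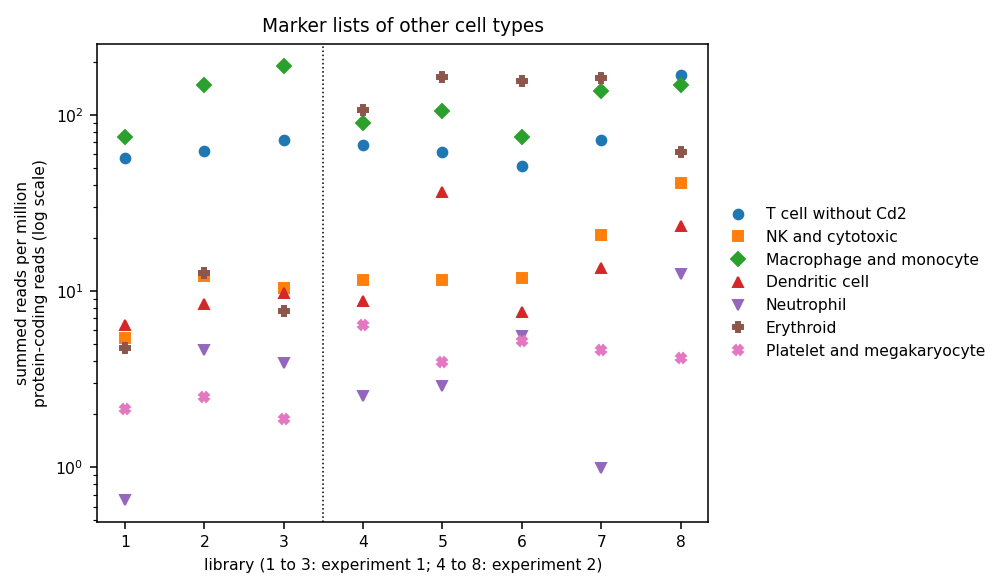
Summed RPM (vertical log axis) of 7 marker lists of other cell types in each untreated library (horizontal axis), with Cd2 left out of the T cell list. T cell genes are at 168 in library 8 and 51.3 to 71.8 in the others, dendritic cell genes peak at 36.3 in library 5, and erythroid genes lie at 4.75 to 12.7 in experiment 1 and 61.1 to 165 in experiment 2.

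Few genes stood far apart in rank between the experiments. At a gap of at least 10 percentile points between the nearest libraries, 20 of 14666 genes (0.136%) ranked higher in experiment 1 and 28 (0.191%) in experiment 2. The first count was 37, 34 and 37 without libraries 2, 3 and 8, and the second 51, 43, 55 and 46 without libraries 1, 2, 3 and 8. Among the former were the interferon-inducible Ifi208, with percentiles of 68.6 to 77.2 against 33.8 to 37.5, the acyl-CoA-binding Dbil5, Fosb, the replication and methylation factor gene Uhrf1 and Cpt1a, an enzyme gene of fatty acid import into mitochondria. Gm16867 had percentiles of 38.1, 37.1 and 36.7 in experiment 1 and 5.06, 5.37, 6.06, 6.04 and 5.97 in experiment 2, where it had 0 reads in all.

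The genes that ranked higher in experiment 2 were led by haemoglobin. Hbb-bs, a beta globin gene, had percentiles of 36.4, 54.3 and 41.0 in experiment 1 and 96.2, 97.9, 97.7, 97.9 and 92.1 in experiment 2, with normalized read counts of 4.77, 24.2 and 9.32 and then 827, 1397, 1305, 1345 and 422. The alpha globin genes Hba-a1 and Hba-a2, near-identical copies whose split is uncertain, had percentiles of 27.6 to 42.3 against 76.1 to 86.8 and 31.1 to 49.4 against 73.1 to 91.2. The platelet chemokine gene Pf4 had 5.79 to 7.79 against 29.5 to 46.0. Of all members of the 41 lists, 4 (Sdc1, Uhrf1, Fosb and Nr4a1) were among the 20 and 5 (Hba-a1, Hba-a2, Hbb-bs, Alas2 and Pf4) among the 28. The antigen receptor, BCR signalling and MHC class II lists had no member in either set. For a gene within the highest 10% in every library, a gap of 10 percentile points cannot arise. All antigen receptor genes and most members of the other lists had medians in that range. The sets also held only 0.136% and 0.191% of all genes, so this absence does not measure how steady the lists were. The 20 genes had a median exon length of 4266.5 bases and the 28 one of 1499.5, against 4329.5 for all genes ranked.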

How the data were processed

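Total RNA of B220+CD93+ spleen cells was extracted with a column kit for small samples and made into stranded libraries, per the labels' protocols. Reads were demultiplexed with bcl2fastq and aligned with STAR 2.5.2b to mm10, per the submitters' processing notes. The read counter, its strand setting, its treatment of reads that fit several places and the scaling are stated nowhere in the sources read. What the authors deposited is a signal: read counts per gene that the authors had multiplied by 1 factor per library, with the 2 experiments in separate tables. Dividing each library by its smallest step gave whole reads for 100% of values (tolerance 0.01), with 1 read worth 0.596 to 1.34. All 16 columns read in the 2 tables were matched to samples by name, and the 8 untreated ones were used, grouped by table. Any 2 libraries of a table differed by more than counting noise (chi-square over degrees of freedom 5.13 to 82.8).

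Exon lengths came from GENCODE M21 (GRCm38), whose identifiers covered 98.9% and 98.8% of the entries of the tables. Levels between genes were compared per kb of merged exons, as ranks within a library among 14666 genes. Spread was the CV of the deposited values with the counting variance removed, for genes averaging 50 reads or more. It was tested on simulated data for each experiment by the root mean square of the corrected CV. Over 8837 genes of experiment 1, a true CV of 60% in 200 genes was recovered as 58.0%, and over 9446 genes of experiment 2 as 57.2%. Medians and CVs of single genes, as reported above, were not tested in this way. The corrected CV was set to 0 where counting error exceeded the variance, in 28.9% of genes of experiment 1 and 4.72% of experiment 2. No treatment was compared and no test across conditions was run, so no p-value is given. Deviations of a list are medians over genes of log2(value + 1) against the table's mean. Promoters came from a RefSeq table that is not complete.

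The 42 gene lists, of which 41 could be ranked and some share genes, and the choice of libraries were made with earlier results of these data known. Genes named besides list members were the 20 highest by rank, the 10 highest by share of reads in each table, the 10 most and 5 least variable of the protein-coding genes in each table (immunoglobulin constant genes not included), the 10 with the largest rank gap in each direction, and the most used variable segments. List members without a counterpart in both tables were not analysed here. A few list members are counted with their list but not reported here by name or plotted. Alternatives were other lengths, filters and scalings (including edgeR 4.0.16 TMM factors) and leaving out each library. Work was done in Python 3.11.15 with pandas 2.3.3, numpy 2.4.6, scipy 1.17.1 and matplotlib 3.10.9, and in R 4.3.3. Depth was 9966821 to 36840455 reads per library, so low genes carry wide counting error.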

Additional observations from a re-analysis of the deposited data

Results flagged for a closer look

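Of 79 values examined over the 5 libraries of experiment 2, 10 had 1 library so far from the other 4 that its gap exceeded 0.71 of the whole range. In 7 of the 10 that library was library 8. Experiment 1, with 3 libraries, was not examined in this way. The genes were in part chosen for their spread, so the number is a description.

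Library 8 stood high for T cell genes and low for Rn7sk and for the class of ribozymes and miscellaneous RNA that includes it. Cd3e was at a normalized read count of 167 (29.2 to 57.2 in the other 4 libraries), Tcf7 at 277 (41.2 to 92.2), Fyb at 194 (24.9 to 69.8) and Igfbp4, the gene of an insulin-like growth factor binding protein, at 155 (21.2 to 50.8). Rn7sk took 0.691% of its reads against 1.16% to 1.22% in the others, and ribozymes and miscellaneous RNA together 1.65% against 2.43% to 2.70%. Basophil and mast cell genes summed to 0.472 RPM against 0 to 0.0552, which is 8 reads of Gata2 against at most 1. Library 8 also had the highest share of protein-coding reads of the 5, at 53.3%. Library 5 stood high for Siglech at 157 (17.5 to 41.3), Ctsl at 255 (37.9 to 94.8) and Plxdc1 at 154 (22.5 to 53.1). The cause of these differences was not tested.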

How the results depend on the processing

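Over 26 main results, 130 of 168 values under other settings stayed within the spread or within 1.5 times the reported value and 38 moved. For single genes and lists 484 of 618 stayed and 134 moved. The order of the 2 experiments turned for the rank gap counts and for the share of immunoglobulin constant genes. With protein-coding reads as the denominator, ribosomal protein genes held 10.2% and 12.3%, the mitochondrial genome 1.56% and 2.51% and immunoglobulin constant genes 1.03% and 1.10% of reads in experiments 1 and 2 (0.545% and 0.524% of all reads), since the denominator is smaller. Over genes with a mean of at least 10 reads, the lowest Spearman's rho was 0.991 within experiment 1, 0.984 within experiment 2 and 0.965 between them. With 1 library left out the lowest rho ranged from 0.983 to 0.984 in experiment 1 and from 0.981 to 0.986 in experiment 2, where 0.986 was without library 8.

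The number of genes whose highest library was at least 2 times the lowest was 511 in experiment 1 and 1445 in experiment 2 at a mean of at least 10 reads, and 12 and 62 at a mean of at least 200 reads. With 1 library left out it ranged from 24 to 36 (24 without library 1, 36 without library 2, 30 without library 3) and from 178 (without library 8) to 325. The median corrected CV ranged from 2.97% to 3.10% and from 7.05% (without library 8) to 9.09%. With a gap of at least 20 percentile points, 3 genes ranked higher in experiment 1 and 5 in experiment 2; over genes with a mean of at least 10 reads, 48 and 43 did, where 20 and 28 are reported. With 1 library left out these counts ranged from 20 to 37 (37 without library 2 or 8, 34 without library 3) and from 32 to 55 (55 without library 3, 51 without library 1, 46 without library 8, 43 without library 2). T cell genes without Cd2 averaged 63.6 and 83.8 RPM, and without Cd2 and Lck, a setting chosen after seeing the data, 28.4 and 58.3 RPM. The cause of these shifts was not tested, except that fewer libraries or shallower genes enter by construction. No paired analysis was possible because the results come from no test and the replicate numbers of the 2 untreated groups, 1 to 3 and 4 to 8, do not overlap. Depth limits values of genes with few reads, and the 3 libraries of experiment 1 limit its spread.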
